A study of Mus musculus with 34 samples.

Results

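Mesothelial cells of the omentum were compared with mesothelial cells of the mesentery, gene by gene, in the mouse. The comparison rests on the 6 libraries whose titles name mesothelial cells of these depots, 3 of the omentum and 3 of the mesentery, out of 34 libraries in the series. The study sequenced polyadenylated RNA of stromal cells sorted from digested tissues, in 9 libraries of mesothelial cells and 25 of fibroblasts, and its question was how the tissue of residence bears on their transcripts. Both groups were sorted as podoplanin-positive cells that lacked CD45, CD31, Epcam and PDGFRA. PDGFRA-positive cells from the same depots, 3 libraries of omentum fibroblasts and 3 of mesentery fibroblasts, serve below to show which differences both cell types had. All of these groups are labelled visceral fat and GFP-negative, so by label the omentum and mesentery groups differ in the depot alone. The labels name no strain, age, sex or treatment. Whether a group's 3 libraries are 3 animals is not stated, and the p-values can speak only of library-to-library spread, which may be technical.

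The mesothelium is a single sheet of flattened cells of mesodermal origin that lines the body cavities and covers the organs within them. Its cells carry both keratins and mesenchymal genes, secrete hyaluronan and other lubricants, balance clotting against its dissolution, and call neutrophils and monocytes into the cavity after injury or infection. The omentum is an apron of fat that hangs from the stomach and holds clusters of leukocytes beneath a specialised mesothelium, whereas the mesentery tethers the intestine and carries its vessels and nerves. Many of the genes described here are targets of NF-kB, a family of transcription factors that inhibitors of the I-kappa-B family hold in the cytoplasm until signals such as interleukin 1 or tumour necrosis factor release them.

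Total counts were 32519983, 41013391 and 36654084 in the omentum libraries, against 33625057, 30662388 and 30944934 in the mesentery libraries. Levels of single genes are given as counts-per-million (CPM), scaled by TMM, the trimmed mean of M-values normalisation of edgeR, and serve to compare libraries for a single gene, not genes with each other. Sums over marker lists are CPM of the total counts, without this scaling. Scaling would divide each by the library's TMM factor. These factors were 0.873, 0.885 and 1.04 in omentum libraries, against 1.25, 1.03 and 1.03 in mesentery libraries. A gap between depots in such a sum may thus come in part from the missing scaling. Differences are log2 fold changes of omentum over mesentery ± SE from the quasi-likelihood test of edgeR, and adjusted p-values are Benjamini-Hochberg values over all 25705 genes tested. To be called higher or lower, a gene needed both an adjusted p under 0.05 and a change of 1 or more on the log2 scale. Log expression correlated across genes with r from 0.958 to 0.973 within a depot and from 0.941 to 0.961 between the depots. Lists of genes are described by how many members were called, and no list was tested as such. Each list count in mesothelial cells is to be read against the 2.36% of all genes called higher and the 2.79% called lower. In fibroblasts these shares were 5.64% higher and 2.4% lower. Counts of members whose depot effect differed between the cell types are to be read against 5.17% of all genes. In sorted populations a smaller share of a cell type and less RNA per cell of that type cannot be told apart.

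Transcripts of pancreatic acinar cells set 3 of the 6 libraries apart. The summed level of 22 acinar markers was 2983, 61.6 and 54.4 CPM in the omentum libraries, against 10365, 2678 and 277 CPM in the mesentery libraries. Omentum replicate 1 and mesentery replicates 1 and 2 thus exceeded 1000 CPM. They are called acinar-rich below, and results are given with and without them. Leaving them out keeps 2 omentum libraries and 1 mesentery library, whose spread is then assumed to equal that of the other groups. No acinar marker was called in the full comparison, where 3 had an unadjusted p under 0.05 by edgeR and DESeq2 called 0, and 20 of the 22 were called lower with no filter on low counts. The calls of these markers depended on which libraries were left out, and 0 were called lower without omentum replicate 2, omentum replicate 3 or any single mesentery library. Without omentum replicate 1, 21 were called lower in the omentum, and without the acinar-rich libraries 17, with mesentery replicate 3 at 277 CPM above the 61.6 and 54.4 CPM of the omentum libraries that stay. The part of these transcripts in the results was not tested beyond the values without these libraries.

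Markers of the mesothelium were present in every library. Upk3b, which encodes a uroplakin of mesothelial surfaces, had 3898, 4239 and 3468 CPM in the omentum libraries, against 3303, 4731 and 3858 CPM in the mesentery libraries (log2 difference -0.04 ± 0.49, adjusted p = 0.995). Wt1, the transcription factor that marks the lining from the embryo on, had 161, 203 and 212 CPM, against 266, 187 and 281 CPM (-0.35 ± 0.30, adjusted p = 0.557). For Msln, the surface protein mesothelin, the values were 914, 983 and 823 CPM in the omentum and 1799, 2213 and 2298 CPM in the mesentery, which did not overlap but did not pass the test (-1.21 ± 0.69, adjusted p = 0.345). Msln was called lower with no filter on low counts and with only the 6 or the 9 mesothelial libraries in the fit. Without TMM scaling, the 16 mesothelial markers summed to between 12834 and 13411 CPM in omentum libraries and between 16465 and 18513 CPM in mesentery libraries. The sum was 1268 to 1704 CPM in omentum fibroblasts and 224 to 358 CPM in mesentery fibroblasts. By gene, with scaling, the median log2 difference was -0.08 (-0.09 for all genes), and it was positive in 5 of the 16 markers. Only Bnc1, a zinc finger factor of the mesothelium and of stratified epithelia, was called among them, lower in the omentum at 32.9, 31.8 and 34.6 CPM, against 93.8, 78.0 and 95.6 CPM (-1.43 ± 0.34, adjusted p = 0.00995; with DESeq2, adjusted p = 0.361).

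The sorted proteins' transcripts matched the gate in both depots. Pdgfra, the receptor that the gate excludes, had 11.5, 12 and 11.7 CPM in omentum and 7.48, 4.43 and 7.91 CPM in mesentery mesothelial cells, against means of 690.1 CPM in omentum and 1194 CPM in mesentery fibroblasts. Pdpn, which encodes podoplanin, had 560.0, 734 and 466 CPM, against 363, 623 and 615 CPM, and the depots overlapped. Ptprc, for the leukocyte protein CD45, had 1.59, 0.496 and 1.05 CPM, against 0.879, 0.126 and 0.250 CPM. Epcam was at most 0.661 CPM and Pecam1, which encodes CD31, at most 9.19 CPM. None of these 5 genes was called by edgeR or DESeq2, and 2 had an unadjusted p under 0.05 by edgeR. Pdgfra, higher in every omentum library, had an edgeR adjusted p under 0.05 and missed only the fold threshold. The 22 leukocyte markers summed to between 103 and 173 CPM in omentum libraries and between 154 and 167 CPM in mesentery libraries, and 1 of them was called, C1qc, a complement component of macrophages, at 1.51, 0.165 and 1.08 CPM, against 0, 0 and 0.0938 CPM, or 90 counts against 3. With no filter on low counts 8 leukocyte markers were called higher. The call of C1qc was lost without omentum replicate 1 (edgeR adjusted p = 0.098), omentum replicate 3 (0.0516), mesentery replicate 1 (0.115) or mesentery replicate 2 (0.059). The 12 B and plasma cell markers summed to 33.8, 0.927 and 152.6 CPM in omentum libraries, against 3.03, 1.24 and 0.679 CPM in mesentery libraries, so that omentum replicate 2 lay at the mesentery level, and 2 of the 12 were called higher. That count was 4 without omentum replicate 2, 1 without omentum replicate 3 or any single mesentery library, and 0 without the acinar-rich libraries.

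Of the 25705 genes tested, 1324 were called (5.15%), 606 higher in omentum mesothelial cells (2.36%) and 718 lower (2.79%). Across all genes tested the median was -0.09 on the log2 scale. The 3 omentum libraries lay on one side of the 3 mesentery libraries in 576 of the 606 genes called higher and in 669 of the 718 called lower, and in 5148 of all genes tested (20%). The count of calls was 845 without omentum replicate 2 and 868 without mesentery replicate 1, and 292 of the genes called higher and 289 of those called lower kept their call whichever single library was left out. Without the 3 libraries rich in acinar transcripts 174 of the genes called higher and 186 of those called lower were still called, and all 606 and 710 of the 718 kept their sign. Most of these signs were fixed in advance, since that fit uses part of the same libraries and most called genes had no overlap between depots. Kept signs are thus no separate evidence. Among the lists, inflammatory chemokines held the largest share of members called higher, and Hox paralogs 9 to 13 the largest share called lower.

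**Figure D1:**
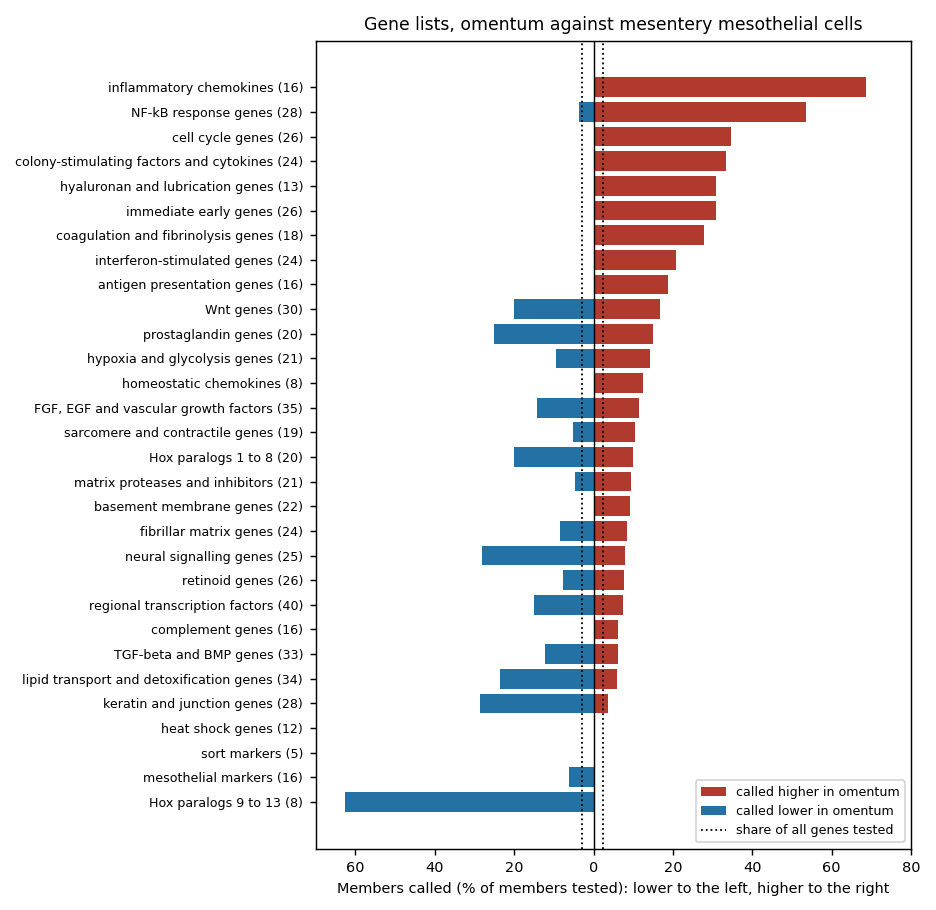
Share of the tested members of each gene list that was called higher (right, red) or lower (left, blue) in omentum than in mesentery mesothelial cells, with the number of members tested in parentheses. Dotted lines mark the shares among all 25705 genes, 2.36% higher and 2.79% lower; 11 of 16 inflammatory chemokines stood on the right and 5 of 8 Hox paralogs 9 to 13 on the left.

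Most chemokines that draw neutrophils and monocytes were higher in omentum mesothelial cells. Of 16 inflammatory chemokines tested, 11 were called higher and 0 lower, where 2.36% of all genes were called higher, and their median log2 fold change was 2.5. All 11 had omentum libraries above every mesentery library, a trait of most called genes (576 of the 606 called higher) and thus no separate evidence. The depots did not overlap in 20% of all genes. The neutrophil attractants of the CXC family that bind CXCR2 led the list. Cxcl3 (ENSMUSG00000029379, chromosome 5, 90786103 to 90789600) had 9.23, 42.8 and 15.8 CPM in omentum libraries, against 0.119, 0.253 and 0.688 CPM in mesentery libraries, with a log2 difference of 6.06 ± 0.73 (adjusted p = 9.2e-07). Omentum replicate 2 was the highest of its group, and even the lowest omentum library lay far above the highest mesentery library. Cxcl2 (ENSMUSG00000058427, chromosome 5, 90903871 to 90905938) had 244, 601 and 247 CPM, against 10.2, 9.30 and 26.4 CPM (4.58 ± 0.67, adjusted p = 6.51e-05). Cxcl1 (ENSMUSG00000029380, chromosome 5, 90891241 to 90893115), among the most abundant transcripts called, had 3963, 4855 and 3748 CPM, against 647, 697 and 1125 CPM (2.35 ± 0.46, adjusted p = 0.0017). Cxcl5, another ligand of this receptor, had 22.0, 54.5 and 38.6 CPM, against 3.64, 2.34 and 4.53 CPM (3.45 ± 0.81, adjusted p = 0.00848). Among these 4 genes omentum replicate 2 held the highest value each time, and mesentery replicate 3 the highest of the mesentery.

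The first 3 of these genes lie close together on chromosome 5, and their promoters are shown because each holds the same NF-kB motif. The sequences are the 150 bases before the RefSeq start on the forward strand of GRCm38.p6, taken from windows of 300 bases, with matches to the kappa B motif (GGGA, any base, TTTCC) and to the TATA box motif TATAAA in capitals.
Cxcl1, chr5:90891095-90891244: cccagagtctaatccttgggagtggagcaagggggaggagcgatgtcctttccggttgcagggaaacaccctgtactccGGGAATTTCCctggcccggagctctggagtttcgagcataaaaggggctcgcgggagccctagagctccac
Cxcl2, chr5:90903749-90903898: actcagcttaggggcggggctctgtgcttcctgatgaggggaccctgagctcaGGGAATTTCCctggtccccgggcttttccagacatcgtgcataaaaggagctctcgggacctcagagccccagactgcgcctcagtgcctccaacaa
Cxcl3, chr5:90785951-90786100: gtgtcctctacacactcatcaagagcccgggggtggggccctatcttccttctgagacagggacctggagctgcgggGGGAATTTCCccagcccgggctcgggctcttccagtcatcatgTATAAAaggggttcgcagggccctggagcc
The same 10 letters, GGGAATTTCC, stood at -71 in Cxcl1, at -97 in Cxcl2 and at -73 in Cxcl3, counted from the start to the first base of the match. Of 32851 RefSeq promoters of 300 bases searched on both strands, 135 held the kappa B motif (0.411%) and 4473 the TATA box (13.6%). Promoters were found for 9 of the 17 chemokines of the list, 5 of them called, and the 3 shown were the only ones with the kappa B motif. The palindromic AP-1 motif TGANTCA, held by 7.81% of all promoters, was in none of the 5. Among genes with a promoter in the table, 10 of 425 called higher held the kappa B motif (2.35%), 3 of 447 called lower (0.671%) and 79 of all 15097 tested (0.523%). These 10 included Cxcl1, Cxcl2 and Cxcl3, shown above because they hold the motif, so the share of 2.35% is not separate from them. Nfkbia, Nfkb2, B2m and Krt23, described elsewhere in the text, were also among the 10. A match is a description of the letters and no evidence of binding.

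The CC chemokines that recruit monocytes showed the same direction. Ccl2 had 2049.6, 2989.6 and 1919 CPM in omentum libraries, against 254, 224 and 628 CPM in mesentery libraries (2.65 ± 0.54, adjusted p = 0.00258), and its neighbour Ccl7 1260.2, 1675 and 1243 CPM, against 88.2, 132 and 354 CPM (2.86 ± 0.52, adjusted p = 0.000841). For both, mesentery replicate 3 was the highest of its depot and still below every omentum library. Cxcl16, a membrane-bound chemokine that also acts as a scavenger receptor, had 125, 200.2 and 151 CPM, against 50.5, 74.7 and 53.8 CPM (1.41 ± 0.20, adjusted p = 9.92e-06). Ccl4, known from macrophages and lymphocytes, was scarce at 1.16, 2.15 and 3.21 CPM, against 0, 0 and 0.0625 CPM, or 233 counts against 2, a ratio of 120 (95% interval 32.8 to 996, exact, for counting error only). Ccl3, its relative, had 60 counts in the omentum, against 1 in the mesentery. No fitted fold change is given for a gene with at most 3 counts in a depot, since it depends on the prior count. Without the libraries rich in acinar transcripts Cxcl3 (5.52, adjusted p = 0.00148), Ccl4 (adjusted p = 0.0138) and Cxcl16 (1.82, adjusted p = 0.0018) stayed called, whereas the other 8 had log2 differences from 1.24 to 4.32 that did not pass, among them Cxcl2 (4.13, adjusted p = 0.111), Cxcl1 (2.05, adjusted p = 0.392), Ccl2 (2.08, adjusted p = 0.445) and Ccl7 (2.16, adjusted p = 0.347). Ccl5 was called at 2.07 ± 0.56 and lost its call without omentum replicate 2 (1.58, adjusted p = 0.162) or mesentery replicate 3 (1.83, adjusted p = 0.0864). Ccl8 was called at 3.68 ± 1.02 and lost it without omentum replicate 1 (2.80, adjusted p = 0.216), mesentery replicate 1 (3.01, adjusted p = 0.126) or mesentery replicate 2 (3.18, adjusted p = 0.0653). Cxcl10, an interferon-induced attractant of T cells, had 209, 222 and 278 CPM, against 82.1, 70.4 and 111 CPM, without overlap, and did not pass (1.43 ± 0.45, adjusted p = 0.0565). It was called higher with DESeq2, with no filter on low counts, with only the 6 or the 9 mesothelial libraries in the fit and with a replicate block.

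In fibroblasts of the same depots 9 of these 16 chemokines were called higher in the omentum and 0 lower, where 5.64% of all genes were called higher in that comparison. The difference between the depot effects of the cell types was called for 1 of the 16 (5.17% of all genes). The fibroblast log2 difference was 4.73 ± 0.76 for Cxcl3, 3.70 ± 0.65 for Cxcl2, 1.42 ± 0.45 for Cxcl1 and 1.89 ± 0.53 for Ccl2, each called. Of 22 leukocyte markers 13 were called higher in omentum fibroblasts and 0 lower. They summed to 180 to 210 CPM in omentum and 22.2 to 48.6 CPM in mesentery fibroblasts. Of 12 B and plasma cell markers 10 were called higher there and 0 lower. Their sum was at least 1272 CPM in omentum and at most 22.4 CPM in mesentery fibroblasts. The part of leukocyte RNA in the fibroblast values, here and below, was not tested. Of 8 homeostatic chemokines, which place lymphocytes in tissues at rest, 1 was called (3 without mesentery replicate 1), the B cell attractant Cxcl13. It had 83.5, 65.0 and 73.8 CPM in omentum and 44.0, 14.1 and 12.3 CPM in mesentery mesothelial cells (1.65 ± 0.51, adjusted p = 0.0473), far below its mean of 3146 CPM in omentum fibroblasts. That call was lost without omentum replicate 1 (1.56, adjusted p = 0.117), omentum replicate 2 (1.74, adjusted p = 0.085) or omentum replicate 3 (1.66, adjusted p = 0.0733), without mesentery replicate 2 (1.39, adjusted p = 0.141) and without mesentery replicate 3 (1.35, adjusted p = 0.187).

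Cytokines and colony-stimulating factors followed. Of 24 tested, 8 were called higher in the omentum and 0 lower, with a median log2 fold change of 0.86, and 4 were called without the libraries rich in acinar transcripts. Csf2 (ENSMUSG00000018916, chromosome 11, 54247271 to 54249667), which encodes GM-CSF, the growth factor of granulocytes and macrophages, had 5.04, 30.5 and 10.7 CPM in omentum libraries, against 0.903, 0.791 and 0.625 CPM in mesentery libraries (4.31 ± 0.72, adjusted p = 0.000178). The omentum libraries differed widely among themselves, with replicate 2 highest, while the mesentery libraries lay close together. Lif, a cytokine of the interleukin 6 family, had 4.93, 19.2 and 17.9 CPM, against 2.0, 1.45 and 3.75 CPM (2.55 ± 0.37, adjusted p = 1.92e-05). Tnf, the tumour necrosis factor, had 2.47, 4.44 and 2.55 CPM, against 0.166, 0 and 0.0625 CPM (5.17 ± 0.89, adjusted p = 0.000117). Interleukin 1 transcripts were close to absent from the mesentery. Il1a had 1.27, 1.41 and 3.53 CPM in omentum libraries, against 0, 0 and 0.0313 CPM in mesentery libraries, or 221 counts against 1. Il1b, the second interleukin 1 gene, had 184 counts, against 1. Il23a, a subunit of interleukin 23, had 2.61, 4.90 and 3.79 CPM, against 0.475, 0.727 and 1.25 CPM (2.24 ± 0.49, adjusted p = 0.00269). Csf2 and Tnf differed by depot in mesothelial cells more than in fibroblasts, by 4.25 ± 1.03 and 4.78 ± 1.28 on the log2 scale (adjusted p = 0.00954 and 0.0161), whereas Il1a, Il1b, Lif and Il23a were called higher in omentum fibroblasts as well.

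Among the 16 members not called were Csf1 and Il6. Csf1, the growth factor on which macrophages depend, had 93.7, 283 and 227 CPM, against 112, 135 and 85.0 CPM (0.87 ± 0.35, adjusted p = 0.15). Omentum replicate 1 fell among the mesentery libraries, while the other two lay above them. Il6 had 114, 98.6 and 87.4 CPM, against 27.2, 43.0 and 47.9 CPM (1.35 ± 0.49, adjusted p = 0.102), without overlap. The result for Il6 depended on the fit. It was called higher with DESeq2, with no filter on low counts, with only the 6 or the 9 mesothelial libraries and with a replicate block. Csf1 was called without omentum replicate 1 (1.21, adjusted p = 0.0304) and without the libraries rich in acinar transcripts (1.70, adjusted p = 0.0352). Leukocytes also make many of these cytokines and chemokines. Of the 22 leukocyte markers 16 had a positive log2 difference, with a median of 1.06 and a range from -1.41 to 4.80, and the defining gene Ptprc was at 0.496 to 1.59 CPM in the omentum, against 0.126 to 0.879 CPM in the mesentery. The part of leukocyte RNA in the cytokine and chemokine results was not tested.

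Genes that NF-kB switches on were the second list by share, with 15 of 28 called higher, 1 lower and a median of 1.46. They covered its inhibitors, its subunits and adhesion molecules. Tnfaip2 (ENSMUSG00000021281, chromosome 12, 111442469 to 111455018), a gene induced by tumour necrosis factor, had 50.8, 90.3 and 68.1 CPM in omentum libraries, against 2.07, 0.727 and 6.13 CPM in mesentery libraries (4.56 ± 0.37, adjusted p = 7.59e-10). It kept its call without the acinar-rich libraries (3.81, adjusted p = 4.41e-07). Vcam1, the adhesion molecule that leukocytes bind through integrins, had 122, 320.3 and 209.9 CPM, against 35.6, 18.5 and 35.5 CPM (2.86 ± 0.34, adjusted p = 1.13e-06), and Icam1, its counterpart for neutrophils, 476, 975 and 741 CPM, against 172, 159 and 280.1 CPM (1.84 ± 0.40, adjusted p = 0.0042). Every omentum library exceeded every mesentery library for these genes, as the depots lay apart in 576 of the 606 genes called higher. Among inhibitors of NF-kB, Nfkbie changed by 1.99 ± 0.33, Nfkbib by 1.75 ± 0.32 and Nfkbia by 1.38 ± 0.34 (adjusted p = 0.000105, 0.000361 and 0.00908). Nfkbia had 1989, 1997 and 1578 CPM, against 641, 903 and 599.8 CPM, and lost its call without mesentery replicate 1 (1.34, adjusted p = 0.0682) or mesentery replicate 3 (1.26, adjusted p = 0.0555). The subunit gene Relb changed by 1.42 ± 0.27 (adjusted p = 0.000546), and Bcl3, a nuclear co-factor of NF-kB, by 2.0 ± 0.37 (adjusted p = 0.000515). Nfkb2, whose promoter holds the kappa B motif, was called at 1.20 ± 0.37, and lost its call without omentum replicate 2 (1.15, adjusted p = 0.121), omentum replicate 3 (0.96, adjusted p = 0.141), mesentery replicate 1 (1.34, adjusted p = 0.101) or mesentery replicate 3 (0.93, adjusted p = 0.198). Sele, for the endothelial adhesion molecule E-selectin, had 23.4, 40.9 and 38.7 CPM, against 1.64, 0.0316 and 3.81 CPM (4.23 ± 1.03, adjusted p = 0.0119), a call lost without mesentery replicate 1 (4.22, adjusted p = 0.0654). The 12 endothelial markers summed, without TMM scaling, to 284 to 348 CPM in the omentum and to 392 to 452 CPM in the mesentery. The count of 15 was 9 without mesentery replicate 1 and 8 without the acinar-rich libraries. In fibroblasts 19 of the 28 were called higher and 0 lower.

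**Figure D2:**
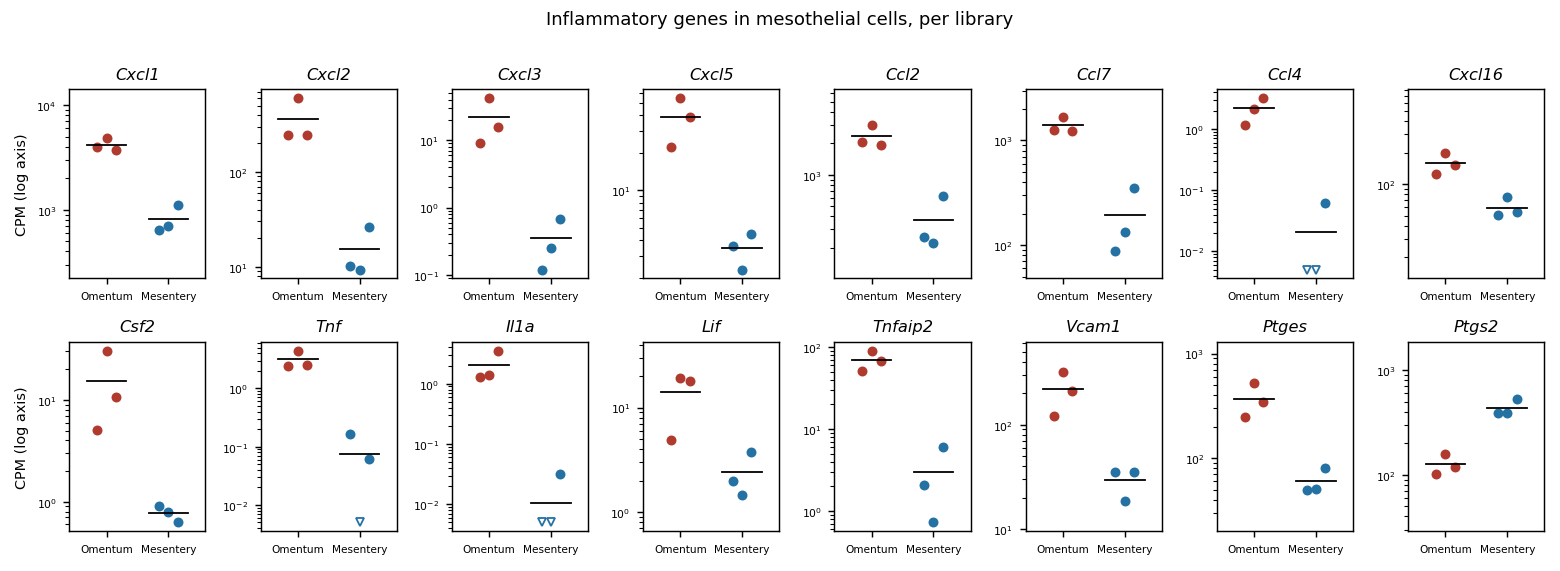
CPM (log axis) of 16 inflammatory genes in each of the 3 omentum (red, left) and 3 mesentery (blue, right) mesothelial libraries; the line is the mean of the group and open triangles mark libraries with no count. Omentum libraries lay above all mesentery libraries in every panel but that of Ptgs2, where they lay below.

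The exception in this list was Ptgs2, cyclooxygenase 2, the inducible enzyme of prostaglandin synthesis. It had 103, 158 and 119 CPM in omentum libraries, against 388, 390.0 and 525 CPM in mesentery libraries (-1.78 ± 0.46, adjusted p = 0.0165). In fibroblasts it was higher in the omentum (2.24 ± 0.47), and the depot effects differed by -4.02 ± 0.66 (adjusted p = 0.000195). The call in mesothelial cells was lost without omentum replicate 1 (-1.65, adjusted p = 0.0807), omentum replicate 3 (-1.74, adjusted p = 0.0534), mesentery replicate 1 (-1.80, adjusted p = 0.0574) or mesentery replicate 3 (-1.62, adjusted p = 0.0617), and without the acinar-rich libraries (-1.81, adjusted p = 0.405). Of 20 prostaglandin genes 3 were called higher and 5 lower, and 3 were called lower without omentum replicate 1, omentum replicate 3 or mesentery replicate 1. Upstream of Ptgs2, the phospholipase gene Pla2g4a, whose product releases arachidonic acid from membranes, had 121, 101 and 85.1 CPM, against 325, 328 and 428 CPM (-1.82 ± 0.16, adjusted p = 2.92e-09). Downstream, Ptges, the synthase of prostaglandin E2, had 246, 524 and 342 CPM, against 49.4, 51.1 and 79.9 CPM (2.62 ± 0.28, adjusted p = 1.26e-07). Hpgd, the dehydrogenase that inactivates prostaglandins, had 2.82, 2.73 and 2.79 CPM, against 28.0, 40.6 and 29.6 CPM (-3.56 ± 0.27, adjusted p = 7.98e-11). The prostaglandin E2 receptor gene Ptger2 was called higher (2.37 ± 0.43, adjusted p = 0.000332). Pla2g4a, Ptges and Hpgd kept their calls without the acinar-rich libraries, where 1 gene of the list was called higher and 2 lower.

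Immediate early genes, which cells switch on within minutes of a stimulus or of handling, changed in part. Of 26 tested 8 were called higher and 0 lower, with a median of 0.36, and 1 without the acinar-rich libraries. Fosl1, a partner in AP-1, had 91.8, 176 and 129 CPM in omentum libraries, against 7.03, 8.41 and 9.07 CPM in mesentery libraries (4.02 ± 0.68, adjusted p = 0.000332). Myc had 305, 549.9 and 376 CPM, against 55.4, 75.1 and 139 CPM (2.19 ± 0.39, adjusted p = 0.000413). Egr3, Ier5, Nr4a2 and Nr4a3 were called as well, from 1.66 for Ier5 to 3.08 for Egr3. Of 12 heat shock genes 0 were called, with a median of 0.44 and positive values in all 12, where 11114 of all 25705 genes had positive values. By edgeR 2 of these 12 had an unadjusted p under 0.05, and DESeq2 called 0. In fibroblasts 8 of 26 immediate early genes were called higher in the omentum and 0 lower.

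Among genes of innate and adaptive defence the changes were smaller. Class I antigen presentation rose in 3 of 16 genes and fell in 0: H2-D1, a class I heavy chain, had 5086, 4400.1 and 4214 CPM in omentum libraries, against 1589, 2289.7 and 1614 CPM in mesentery libraries (1.32 ± 0.18, adjusted p = 7.38e-06). H2-D1 belongs to a family of near-identical genes among which reads may be split. Psmb8, a subunit of the immunoproteasome, was called at 1.29 ± 0.26 and B2m, the class I light chain, at 1.02 ± 0.20, just past the fold threshold, which it missed without omentum replicate 1 (0.82, adjusted p = 0.0121), mesentery replicate 1 (0.92, adjusted p = 0.00921) or mesentery replicate 3 (0.97, adjusted p = 0.00715). Of 24 interferon-stimulated genes 5 were called higher and 0 lower, where 2.36% of all genes were called higher. Isg15, a ubiquitin-like protein, had 128, 51.8 and 56.4 CPM, against 19.7, 29.6 and 30.2 CPM (1.57 ± 0.31, adjusted p = 0.00119), with omentum replicate 1 the highest. The count of 5 fell to 1 without omentum replicate 1, to 1 without mesentery replicate 1, to 2 without mesentery replicate 2 and to 0 without the acinar-rich libraries. Of 16 complement genes 1 was called, the inhibitor Cd55, which protects cells from complement, at 242, 247 and 213 CPM, against 82.5, 76.8 and 83.3 CPM (1.53 ± 0.18, adjusted p = 7.56e-07).

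Tissue factor and an inhibitor of plasminogen activation were higher at the transcript level. Of 18 coagulation and fibrinolysis genes 5 were called higher and 0 lower, where 2.36% of all genes were called higher. F3 (ENSMUSG00000028128, chromosome 3, 121723537 to 121735048), tissue factor, which starts the extrinsic clotting cascade, had 731, 1007 and 628 CPM in omentum libraries, against 95.4, 109 and 164 CPM in mesentery libraries (2.69 ± 0.24, adjusted p = 2.92e-09). The highest mesentery library lay well below the lowest omentum library. In fibroblasts F3 was lower in the omentum (-1.29 ± 0.23), and the depot effects differed by 3.97 ± 0.33 (adjusted p = 2.29e-09). Serpinb2, the plasminogen activator inhibitor 2, had 22.7, 26.4 and 20.3 CPM, against 0.285, 0 and 1.06 CPM (5.71 ± 0.89, adjusted p = 6.64e-05), and Plaur, the urokinase receptor, 664, 1127 and 575 CPM, against 209.7, 255 and 392 CPM (1.47 ± 0.26, adjusted p = 0.000335). Tfpi2, a protease inhibitor, was called at 1.53 ± 0.26. Of these, F3 alone was called without the acinar-rich libraries (2.44, adjusted p = 0.00223).

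Hyaluronan, the glycosaminoglycan that coats and lubricates the serosa, is made at the cell surface by synthases. Of 13 hyaluronan and lubrication genes 4 were called higher and 0 lower, where 2.36% of all genes were called higher. Has2, a synthase of long chains, was near absent in the mesentery, with 1.97, 3.83 and 2.71 CPM in omentum libraries, against 0.143, 0 and 0.0625 CPM in mesentery libraries (5.18 ± 0.66, adjusted p = 7.86e-07). Has1, the other synthase called, had 784, 965 and 821 CPM, against 135, 228 and 237 CPM (2.10 ± 0.54, adjusted p = 0.0163), and lost its call without omentum replicate 2 (2.0, adjusted p = 0.0558) or mesentery replicate 1 (1.93, adjusted p = 0.111). Cd44, the hyaluronan receptor, had 116, 218 and 186 CPM, against 53.1, 45.4 and 48.1 CPM (1.82 ± 0.25, adjusted p = 6.33e-06). Without mesentery replicate 1, without omentum replicate 2 and without the acinar-rich libraries 2 of the list were called. The depot effect on Has2 exceeded that in fibroblasts by 4.17 ± 0.79 (adjusted p = 0.000488).

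Matrix genes moved in both directions. Of 24 fibrillar matrix genes 2 were called higher and 2 lower, where 2.36% of all genes were called higher and 2.79% lower. Fn1, fibronectin, had 243, 472 and 600.3 CPM in omentum libraries, against 169, 91.1 and 128 CPM in mesentery libraries (1.76 ± 0.25, adjusted p = 1.01e-05), and Thbs1, thrombospondin 1, 198, 289 and 197 CPM, against 27.3, 19.0 and 45.8 CPM (2.89 ± 0.52, adjusted p = 0.000757). The collagen-binding proteoglycan lumican, encoded by Lum, had 42.0, 25.4 and 24.5 CPM, against 202, 265 and 260.2 CPM (-2.99 ± 0.24, adjusted p = 3.26e-10), and Col14a1, a collagen that sits on fibrils, was lower too (-2.60 ± 0.27). Of 22 basement membrane genes 2 were called higher, among them Col15a1 (3.43 ± 0.33). The gelatinase gene Mmp2 was called higher (2.19 ± 0.26) and the aggrecanase-family gene Adamts15 lower (-1.38 ± 0.19) among 21 matrix proteases and inhibitors, where 2 were called higher (1 without omentum replicate 2, omentum replicate 3, mesentery replicate 3 or the acinar-rich libraries) and 1 lower. Lum, Col15a1, Penk, Pi16 and Ly6a are also fibroblast markers, a list of 14 with 4 members higher and 1, Lum, lower. That list summed, without TMM scaling, to 27667 to 31883 CPM in omentum libraries and 25720 to 29105 CPM in mesentery libraries. By gene, with scaling, its median log2 difference was 0.64 (-0.09 for all genes), and 12 of the 14 were positive. The depots did not overlap in 9 of the 14, against 20% of all genes. Of the 4 called higher, Ly6a had 264, 174 and 169 CPM, against 40.2, 75.8 and 58.0 CPM, beside means of 1993 CPM in omentum and 1809 CPM in mesentery fibroblasts. The part of fibroblast RNA in these results was not tested.

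Cell cycle genes leaned to the omentum. All 26 tested had a positive log2 difference, with a median of 1.17, where 11114 of all 25705 genes had a positive one. Of the 26, 9 were called higher, against 2.36% of all genes. Ccnb1, the cyclin of mitotic entry, had 26.4, 36.2 and 37.9 CPM in omentum libraries, against 8.32, 8.35 and 6.53 CPM in mesentery libraries (2.11 ± 0.47, adjusted p = 0.00425). Top2a, the topoisomerase of dividing cells, had 29.0, 44.6 and 43.7 CPM, against 11.4, 8.54 and 8.41 CPM (2.04 ± 0.49, adjusted p = 0.00908). Rrm2 for nucleotide synthesis (1.54 ± 0.31), Ccna2 (2.04 ± 0.44), Kif11 for the mitotic spindle (1.77 ± 0.39) and Ccnd1, the cyclin of growth factor response (1.54 ± 0.33), were also called. In every one of these 6 genes the omentum libraries lay above the mesentery libraries, as the depots lay apart in 576 of the 606 genes called higher. The count of 9 was 6 without mesentery replicate 3 and 0 without the acinar-rich libraries. In fibroblasts 1 of the 26 was called higher, where 5.64% of all genes were. Against 5.17% of all genes, the difference between the depot effects was called for 4 of the 26. Rrm2, Ccnb1 and Top2a were among these (2.0 ± 0.43, 2.49 ± 0.65 and 2.30 ± 0.68).

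Some transcription factors that mark position along the gut and the body axis were detected almost only in one depot. Of 40 regional factors 3 were called higher and 6 lower, and 3 and 3 without the acinar-rich libraries. Barx1 (ENSMUSG00000021381, chromosome 13, 48662998 to 48666507), a homeobox factor of the stomach mesenchyme, had 5.74, 4.13 and 4.32 CPM in omentum libraries, against 0.0238, 0 and 0 CPM in mesentery libraries, or 477 counts against 1. The ratio of these counts, scaled by library size, was 491 (95% interval 87.7 to 19437, exact). Nkx2-3 (ENSMUSG00000044220, chromosome 19, 43612325 to 43615892), a homeobox factor of the intestinal mesenchyme, had no count in the omentum libraries and 3.28, 5.63 and 3.94 CPM in the mesentery libraries, which makes it at least 143-fold lower in the omentum. Hand1, a basic helix-loop-helix factor of the lateral mesoderm, had no count in the omentum and 2.07, 2.85 and 1.72 CPM in the mesentery, at least 75.1-fold lower in the omentum. These bounds set the empty side to 3 counts over the 3 libraries. Mab21l2 (ENSMUSG00000057777, chromosome 3, 86545581 to 86548629), a developmental regulator outside the list, had 0, 0.0276 and 0.0263 CPM, against 20.2, 18.2 and 18.2 CPM, or 2 counts against 2010 (mesentery over omentum 976, 95% interval 269.9 to 8066). Tbx4, a T-box factor of the hindlimb and lung mesenchyme also outside the list, ran the other way at 9.51, 12.6 and 16.5 CPM, against 1.07, 0.0632 and 0.469 CPM (4.49 ± 0.46, adjusted p = 8.51e-09). Of the list, Tbx18 (1.51 ± 0.35) and Prrx1 (2.0 ± 0.29) were also called higher, and Nr2f1 (-3.23 ± 0.50) and Twist1 (-1.88 ± 0.43) lower. Gata6, a factor of the peritoneal lining, did not pass, at 77.8, 121 and 92.8 CPM, against 76.0, 63.6 and 122 CPM (0.16 ± 0.28, adjusted p = 0.805). Gata4 was below 0.7 CPM in all 6 libraries.

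Fibroblasts of the same depots differed in these genes too. Their log2 difference was 4.79 ± 0.71 for Tbx4 and -5.67 ± 0.42 for Hoxc8, each called in the direction seen in mesothelial cells. Mab21l2 had 0, 0.0249 and 0 CPM in omentum and 14.8, 13.4 and 15.7 CPM in mesentery fibroblasts. Barx1 had 3.57, 2.34 and 3.51 CPM in omentum and no count in mesentery fibroblasts, and Nkx2-3 0.0507, 0 and 0.0585 CPM in omentum and 6.13, 3.95 and 6.77 CPM in mesentery fibroblasts. In the epididymal mesothelium, another depot of the study, Barx1, Nkx2-3 and Hand1 had no count, while Tbx4 averaged 7.75 CPM and Hoxc8 21.6 CPM. Barx1, Nkx2-3, Hand1, Mab21l2, Tbx4, Prrx1 and Nr2f1 stayed called without the acinar-rich libraries.

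**Figure D3:**
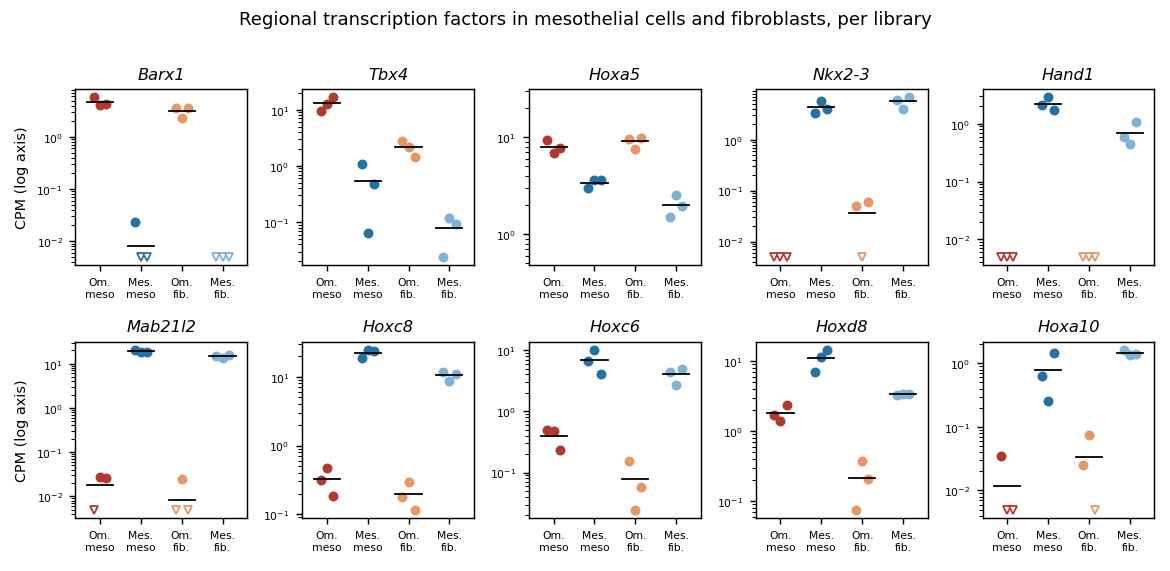
CPM (log axis) of 10 regional transcription factor genes in the 3 libraries each of omentum and mesentery mesothelial cells (Om. meso, Mes. meso) and of omentum and mesentery fibroblasts (Om. fib., Mes. fib.), with lines at group means and open triangles for libraries with no count. Barx1, Tbx4 and Hoxa5 were higher in the omentum in both cell types, and the other 7 genes lower.

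Hox genes, arranged in 4 clusters whose higher numbers are used nearer the tail, were lower in the omentum towards the posterior end. Of 8 paralogs 9 to 13 tested, 0 were called higher and 5 lower, with a median of -2.60. They were scarce: Hoxa10 had 0.0352, 0 and 0 CPM in omentum libraries, against 0.642, 0.253 and 1.44 CPM in mesentery libraries, and Hoxc10 0, 0 and 0.0790 CPM, against 0.380, 0.632 and 0.969 CPM. The omentum counts were 1 and 3, against 81 and 67 in the mesentery. The count of 5 was 1 with only the 9 mesothelial libraries in the fit, 3 with only the 6 libraries compared, 2 without omentum replicate 1 or omentum replicate 2, 3 without mesentery replicate 3 and 2 without the acinar-rich libraries. Of 20 paralogs 1 to 8, 2 were called higher and 4 lower. Hoxc8 (ENSMUSG00000001657, chromosome 15, 102990607 to 102994111) had 0.317, 0.468 and 0.184 CPM, against 18.6, 24.5 and 23.9 CPM (-6.10 ± 0.40, adjusted p = 2.07e-12), and Hoxc6 0.493, 0.468 and 0.237 CPM, against 6.72, 9.99 and 4.13 CPM (-4.13 ± 0.45, adjusted p = 8.35e-08). Hoxd8 (-2.58 ± 0.39) and Hoxa7 (-1.33 ± 0.29) were lower as well. The 2 called higher were the more anterior Hoxa4 (1.58 ± 0.41) and Hoxa5 at 9.23, 6.78 and 7.71 CPM, against 3.02, 3.57 and 3.60 CPM (1.22 ± 0.33, adjusted p = 0.0172). Both lost their call without omentum replicate 1 (1.28, adjusted p = 0.0795 for Hoxa4, 1.10, adjusted p = 0.0618 for Hoxa5) or mesentery replicate 1 (1.53, adjusted p = 0.0585 for Hoxa4, 1.17, adjusted p = 0.0606 for Hoxa5). In fibroblasts 3 of the 8 posterior paralogs were called lower and 0 higher.

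Several genes for keratins and junction proteins, the epithelial side of the mesothelium, were lower in the omentum. Of 28 tested 1 was called higher and 8 lower, with a median of -0.70, where 2.36% of all genes were called higher and 2.79% lower. Cldn1 (ENSMUSG00000022512, chromosome 16, 26356642 to 26371841), a claudin of tight junctions, had 54.0, 54.7 and 58.9 CPM in omentum libraries, against 342, 311 and 356 CPM in mesentery libraries (-2.59 ± 0.30, adjusted p = 7e-07). Ocln, occludin of the same junctions, had 0.176, 0.0276 and 0.132 CPM, against 4.13, 3.38 and 5.88 CPM (-5.33 ± 0.62, adjusted p = 7.48e-08). Cdh3, P-cadherin of adherens junctions, had 13.4, 17.7 and 16.1 CPM, against 104, 91.0 and 123 CPM (-2.75 ± 0.38, adjusted p = 5.53e-06). The groups lay apart for all 3 genes, as in 669 of the 718 genes called lower, and each depot's libraries lay close together. Krt17 (ENSMUSG00000035557, chromosome 11, 100256217 to 100261029), a keratin of stressed epithelia, had 0.0705, 0.110 and 0.448 CPM, against 8.79, 11.9 and 13.3 CPM (-5.65 ± 0.59, adjusted p = 3.56e-08), and Krt14, a basal keratin, 3.10, 3.66 and 4.79 CPM, against 19.4, 47.8 and 28.8 CPM (-3.04 ± 0.49, adjusted p = 0.000112). The desmosomal cadherin genes Dsc2 (-2.95 ± 0.64) and Dsg2 (-2.0 ± 0.47) were lower too, Dsg2 not without omentum replicate 2 (-1.63, adjusted p = 0.0691). Krt23 alone was called higher, at 31.4, 37.8 and 29.6 CPM, against 5.30, 6.07 and 8.32 CPM (2.33 ± 0.48, adjusted p = 0.00168). Without the acinar-rich libraries 6 of the 8 lower calls stood and the higher call of Krt23 did not (2.13, adjusted p = 0.0734). With DESeq2 the adjusted p of Krt23 was 0.0541. In fibroblasts 9 of the 28 were called higher and 3 lower, and the difference between the depot effects was called for 13. The epithelial marker list of 12 genes summed to 9.81 to 14.5 CPM in omentum libraries and 11.3 to 40.6 CPM in mesentery libraries, and 0 of its 8 tested members were called by edgeR or DESeq2, with 3 at an unadjusted p under 0.05 by edgeR.

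Some enzymes and transporters for lipids and foreign compounds were lower as well. Of 34 tested 2 were called higher and 8 lower, where 2.36% of all genes were called higher and 2.79% lower. Fmo2 (ENSMUSG00000040170, chromosome 1, 162874317 to 162898726), a flavin monooxygenase that oxidises drugs and other small molecules, had 17.8, 18.2 and 14.5 CPM in omentum libraries, against 805, 779.8 and 920.4 CPM in mesentery libraries (-5.63 ± 0.34, adjusted p = 6.53e-13). Neither depot's libraries spread by more than a fraction of this gap. Its neighbour Fmo1 had 0.916, 1.87 and 1.58 CPM, against 17.7, 19.9 and 17.9 CPM (-3.64 ± 0.21, adjusted p = 1.48e-13). Abcg5 and Abcg8 encode the subunits of a sterol exporter. Abcg5 had 0.458, 0.551 and 0.0790 CPM, against 17.4, 16.3 and 17.7 CPM (-5.58 ± 0.49, adjusted p = 1.4e-09), and Abcg8 0, 0.220 and 0 CPM, against 3.78, 3.0 and 4.31 CPM (-5.51 ± 0.81, adjusted p = 2.49e-05). Gpx3, the secreted glutathione peroxidase, had 343, 344 and 229 CPM, against 1010.2, 1644 and 1429 CPM (-2.16 ± 0.23, adjusted p = 8.35e-08), whereas in fibroblasts it was higher in the omentum (1.06 ± 0.22). The 2 genes called higher were fatty acid binding proteins, Fabp3 at 24.5, 19.3 and 13.4 CPM, against 1.19, 2.09 and 2.19 CPM (3.40 ± 0.41, adjusted p = 7.56e-07), and Fabp5 (2.11 ± 0.42). Of the 8 lower calls 7 stood without the acinar-rich libraries, and of the 2 higher calls 1. In fibroblasts 13 of the 34 were called higher and 7 lower, and the depot effects differed for 11. The 8 adipocyte markers, which share fat-handling genes with this list, summed to 19.0 to 27.6 CPM in omentum libraries and 19.99 to 25.5 CPM in mesentery libraries.

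**Figure D4:**
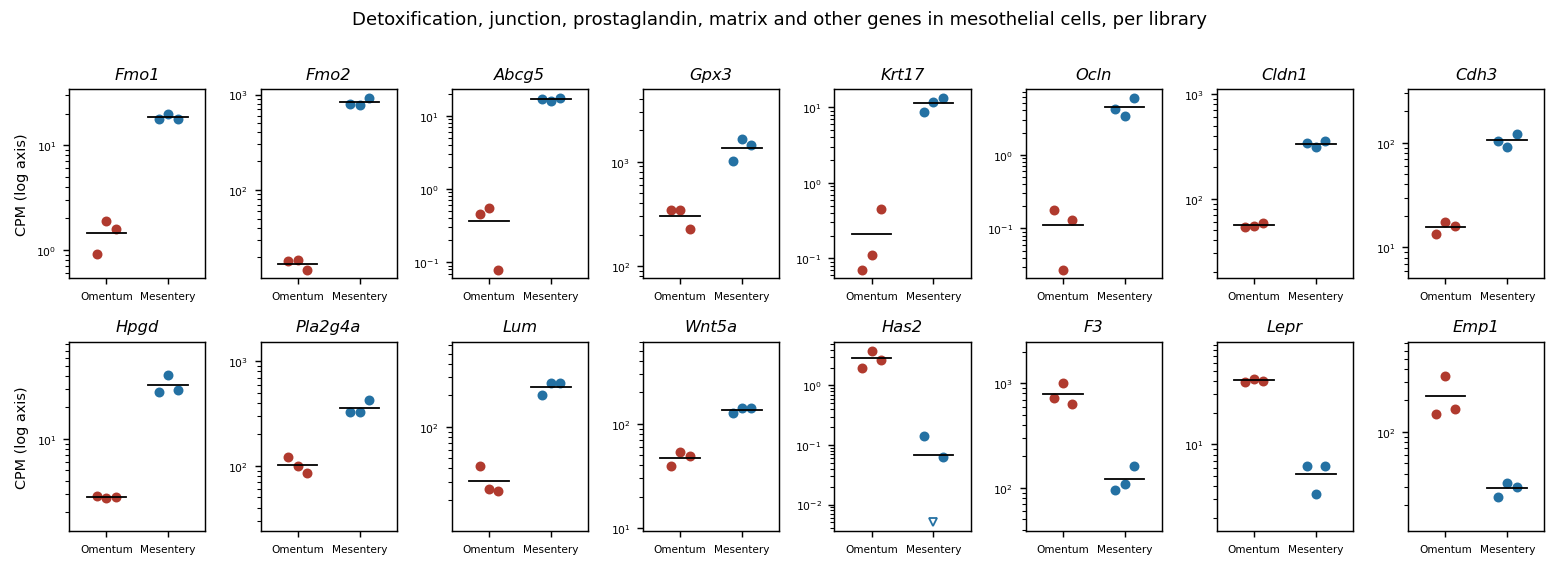
CPM (log axis) in each of the 3 omentum (red, left) and 3 mesentery (blue, right) mesothelial libraries for detoxification and lipid genes (Fmo1, Fmo2, Abcg5, Gpx3), junction and keratin genes (Krt17, Ocln, Cldn1, Cdh3), prostaglandin genes (Hpgd, Pla2g4a) and other genes named in the text; lines are group means and the open triangle marks a library with no count. Has2, F3, Lepr and Emp1 lay higher in every omentum library, and the other 12 genes lower.

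Genes of secreted signals were called in both directions, where 2.36% of all genes were called higher and 2.79% lower. Of 30 Wnt genes 5 were called higher and 6 lower, 3 and 3 without omentum replicate 2 or mesentery replicate 1, and 1 and 3 without the acinar-rich libraries. Sfrp4, a soluble Wnt antagonist, had 20.7, 26.9 and 23.9 CPM in omentum libraries, against 1.85, 1.99 and 1.88 CPM in mesentery libraries (3.64 ± 0.25, adjusted p = 7.57e-12), while Dkk2, an antagonist of another class, had 0.247, 0.110 and 0.211 CPM, against 2.19, 2.28 and 3.03 CPM (-3.72 ± 0.52, adjusted p = 8.81e-06). The ligand gene Wnt5a had 39.7, 53.4 and 49.2 CPM, against 126, 141 and 143 CPM (-1.52 ± 0.22, adjusted p = 1.11e-05), and Wnt2 37.5, 37.1 and 35.4 CPM, against 12.5, 14.4 and 17.6 CPM (1.30 ± 0.26, adjusted p = 0.00128). Of 33 TGF-beta and BMP genes 2 were called higher (1 without omentum replicate 2, mesentery replicate 1 or mesentery replicate 2) and 4 lower. Bmp5 (-2.75 ± 0.49), Bmp6 (-2.13 ± 0.42) and Bmp3 (-1.82 ± 0.36), ligands of the BMP branch, were lower, and Id3, a direct target of that branch, was higher at 1810.5, 1856 and 1465 CPM, against 454, 703 and 904 CPM (1.32 ± 0.21, adjusted p = 7.27e-05). Of 35 growth factor genes of the FGF, EGF, vascular and insulin-like families 4 were called higher and 5 lower. The lower count was 3 without omentum replicate 1 or mesentery replicate 1 and 2 without omentum replicate 2. Fgf10 had 3.63, 3.94 and 6.34 CPM, against 0.95, 0 and 0.750 CPM (2.97 ± 0.42, adjusted p = 1.35e-05), whereas Fgf9 had 21.7, 26.8 and 30.8 CPM, against 77.2, 76.3 and 103 CPM (-1.69 ± 0.28, adjusted p = 0.00013) and Fgf1 748, 1029 and 927 CPM, against 1859, 1958 and 2602 CPM (-1.25 ± 0.24, adjusted p = 0.000706). Igfbp3, which binds insulin-like growth factors, was called higher (2.04 ± 0.31). Among 25 neural signalling genes 2 were called higher (1 without omentum replicate 2 or mesentery replicate 1) and 7 lower (4 without omentum replicate 2). The axon guidance ligands Slit2 at 1.66, 2.84 and 3.71 CPM, against 14.7, 11.1 and 16.7 CPM (-2.35 ± 0.30, adjusted p = 2.21e-06), and Sema3e (-2.79 ± 0.41) were lower, and Penk, the enkephalin precursor, higher (2.22 ± 0.43). Without the acinar-rich libraries the TGF-beta and BMP list had 0 genes called higher and 1 lower, the growth factor list 1 and 1, and the neural list 0 and 1.

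Further lists had few calls, beside the 2.36% of all genes called higher and the 2.79% called lower. Of 26 retinoid genes 2 were called higher and 2 lower. The higher count was 0 without mesentery replicate 1 and 1 without omentum replicates 2 or 3 or mesentery replicates 2 or 3, and the lower count 1 without omentum replicate 2 or mesentery replicate 1. Without the acinar-rich libraries 1 was called higher and 0 lower. Aldh1a2 and Aldh1a1, the enzymes that make retinoic acid, did not pass, at 503, 491 and 535 CPM, against 335, 403 and 296 CPM for Aldh1a2 (0.56 ± 0.40, adjusted p = 0.455) and at 796, 627 and 468 CPM, against 395, 492 and 567 CPM for Aldh1a1 (0.38 ± 0.21, adjusted p = 0.321). Lrat, which stores retinol as esters, was lower (-2.25 ± 0.54, adjusted p = 0.00715). Of 21 hypoxia and glycolysis genes 3 were called higher (5 without omentum replicate 1) and 2 lower (1 without any single library other than mesentery replicate 3, and 1 without the acinar-rich libraries). Egln3, an oxygen-sensing hydroxylase, had 73.0, 67.2 and 65.5 CPM, against 8.34, 11.4 and 6.50 CPM (2.97 ± 0.35, adjusted p = 4.91e-07), and Adm, the vasodilator adrenomedullin, 57.5, 40.1 and 25.1 CPM, against 5.70, 4.21 and 8.50 CPM (2.73 ± 0.35, adjusted p = 2.73e-06), while Car9, a carbonic anhydrase induced by hypoxia, was lower (-1.88 ± 0.37). Of 19 sarcomere and contractile genes 2 were called higher (1 without omentum replicate 1 or mesentery replicate 1, 4 without mesentery replicate 2) and 1 lower (0 without omentum replicate 1, omentum replicate 2 or mesentery replicate 2), and 0 in either direction without the acinar-rich libraries. Among them was Myh11, smooth muscle myosin, at 37.7, 55.8 and 79.6 CPM, against 11, 5.69 and 10.5 CPM (2.67 ± 0.60, adjusted p = 0.00611). Myh11 is also 1 of 11 mural cell markers, which summed to 408 to 440 CPM in omentum libraries and 308 to 345 CPM in mesentery libraries, with 2 called higher, and 0 without the acinar-rich libraries. Of 11 glial and enteric neuron markers tested 3 were called lower (1 without mesentery replicate 1, 0 without the acinar-rich libraries), and the list of 12 summed to 2.77 to 9.08 CPM in omentum libraries and 14.1 to 22.8 CPM in mesentery libraries. Their part in the neural signalling result was not tested.

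Outside the lists, genes were named for the size of the difference at 10 CPM or more or for their abundance. They were picked only among called genes whose depots did not overlap, and their products are of many kinds. Actg1, cytoplasmic gamma actin, had 13043, 15479 and 12292 CPM in omentum libraries, against 3202, 3668 and 3820.0 CPM in mesentery libraries (1.93 ± 0.23, adjusted p = 6.77e-07), and Gsn, the actin-severing gelsolin, 1474, 1464 and 1396 CPM, against 603, 528 and 573 CPM (1.35 ± 0.21, adjusted p = 3.39e-05). Gfpt2, which feeds hexosamine synthesis and so the precursors of hyaluronan, had 867, 1987 and 1392 CPM, against 159, 158 and 314 CPM (2.75 ± 0.31, adjusted p = 2.87e-07). Actg1 has near-identical processed copies elsewhere in the genome, among which reads may be split. The chromatin protein gene Hmga1 (3.58 ± 0.39) and the LIM domain gene Lmcd1 (4.01 ± 0.51) were higher. Ch25h for cholesterol 25-hydroxylase (3.87 ± 0.50) and Aqp3, a water and glycerol channel (4.03 ± 0.51), were higher too. Aqp3 ran from 6.69 CPM in omentum replicate 1 to 40.7 CPM in omentum replicate 2, against 1.01 to 1.59 CPM in the mesentery.

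On the lower side stood Kng2, a kininogen, at 0.846, 0.468 and 0.606 CPM in omentum libraries, against 17.9, 21.1 and 24.0 CPM in mesentery libraries (-5.05 ± 0.48, adjusted p = 4.44e-09). Chst4, a sulfotransferase that modifies glycans of L-selectin ligands, had 36.7, 33.4 and 28.1 CPM, against 389, 471 and 493 CPM (-3.78 ± 0.56, adjusted p = 0.000159). The mucosal disulfide isomerase gene Agr2 had 0.987, 0.386 and 0.421 CPM, against 9.17, 20.8 and 15.5 CPM (-4.71 ± 0.48, adjusted p = 1.85e-07). The homeobox gene Isx (-3.89 ± 0.52), the iron exporter gene Slc40a1 (-3.66 ± 0.37) and the integrin gene Itgb8 (-3.70 ± 0.38) were lower. The G protein regulator gene Rgs4 (-4.04 ± 0.57), the receptor gene Gpr85 (-3.93 ± 0.56) and the liprin gene Ppfibp2 (-3.67 ± 0.28) were lower too. Txnip, the thioredoxin-interacting protein, had 300.0, 163 and 277 CPM, against 620.3, 784 and 689 CPM (-1.5 ± 0.19, adjusted p = 2.72e-06). Each of these genes, from Kng2 to Txnip, stayed called when any 1 library was left out. The secreted protease inhibitor gene Slpi, with 286, 185 and 150.4 CPM in the omentum, against 1584, 2998 and 1803 CPM in the mesentery (-3.36 ± 0.87, adjusted p = 0.0209), lost its call without omentum replicate 2 (-3.29, adjusted p = 0.0909) or omentum replicate 3 (-3.18, adjusted p = 0.0643).

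Set beside the fibroblasts, a part of these genes was called in both cell types. Of the 606 genes called higher in omentum mesothelial cells, 189 were called higher in omentum fibroblasts (31.2% of these genes, and 13% of the 1451 called higher in fibroblasts), and 24 were called lower there. Of the 718 called lower, 97 were called lower in omentum fibroblasts (13.5% of these, and 15.7% of the 618 called lower in fibroblasts), and 43 higher. The background in fibroblasts was 5.64% higher and 2.4% lower. The depot effects of the 2 cell types differed by the test of the difference in 207 of the 606 and 222 of the 718, where 5.17% of all genes were called in that test. The calls in fibroblasts come from libraries that the mesothelial comparison does not use. The test of the difference, however, includes the same 6 mesothelial libraries by which the 606 and 718 genes were picked. Its excess over 5.17% is thus in part fixed in advance. How much of the sharing rests on leukocyte RNA in the fibroblast libraries was not tested. Limch1, a regulator of non-muscle myosin, illustrates a shared difference, with log2 values of -3.46 ± 0.30 in mesothelial cells and -3.33 ± 0.28 in fibroblasts.

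Several genes had depot effects of opposite sign or of different size in the 2 cell types. Lepr, the leptin receptor, had 39.5, 42.5 and 40.6 CPM in omentum and 6.18, 3.32 and 6.25 CPM in mesentery mesothelial cells (2.95 ± 0.28, adjusted p = 7.82e-09), but was lower in omentum fibroblasts (-1.46 ± 0.26), a difference between effects of 4.42 ± 0.38 (adjusted p = 3.41e-09). Emp1, a tetraspan membrane protein of epithelia, behaved alike, with 2.92 ± 0.28 in mesothelial cells, -1.19 ± 0.26 in fibroblasts and a difference of 4.11 ± 0.39 (adjusted p = 8.84e-09). The RNA-binding protein gene Rbm47 went the other way, at 2.29, 3.22 and 5.37 CPM in omentum and 36.6, 26.3 and 47.8 CPM in mesentery mesothelial cells (-3.33 ± 0.49), and higher in omentum fibroblasts (3.52 ± 0.57). Dkk2 showed the same pattern (3.0 ± 0.31 in fibroblasts). Hdc, the enzyme that makes histamine, and the keratin gene Krt76 were called higher in the omentum in both cell types, by 1.36 ± 0.36 and 2.22 ± 0.33 in mesothelial cells and by 7.69 ± 0.49 and 8.64 ± 0.63 in fibroblasts, so that the effect was smaller in mesothelial cells. The call of Hdc in mesothelial cells was lost without mesentery replicate 1 (1.33, adjusted p = 0.0645) or mesentery replicate 3 (1.35, adjusted p = 0.0533). Of the 16 mesothelial markers 11 were called higher in omentum than in mesentery fibroblasts, beside the sums given above, and their part in the fibroblast effects was not tested.

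**Figure D5:**
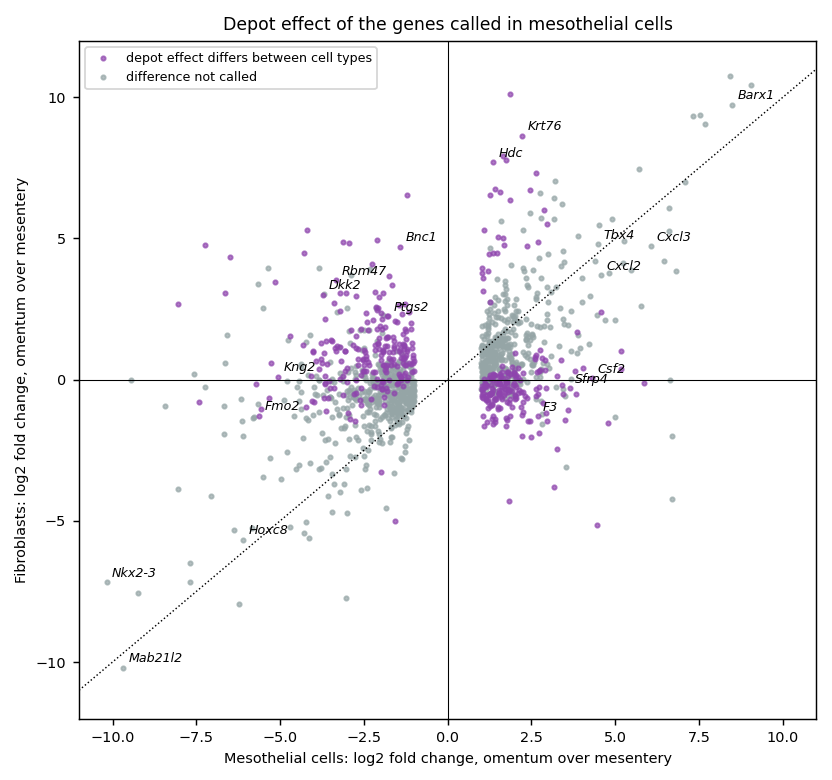
Log2 fold change of omentum over mesentery in mesothelial cells (x axis) and in fibroblasts (y axis) for the 1324 genes called in mesothelial cells; purple points are the 429 genes whose effect differed between the cell types and the dotted line marks equal effects. Fitted values of genes with few counts in a depot, such as Barx1 and Mab21l2, depend on the prior count. Barx1, Cxcl3, Hoxc8 and Mab21l2 lie near the line, and Rbm47, Dkk2 and F3 in the quadrants of opposite sign.

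Mesothelial cells of epididymal fat, 3 further libraries sorted and labelled alike, give a second point of comparison. Each depot's libraries enter 2 of the 3 pairings, so the values are set side by side. Against the epididymal libraries 3.55% of genes tested were called higher and 6.83% lower in the omentum, and 1.98% higher and 2.21% lower in the mesentery. For one set of genes the omentum stood apart. Cxcl3 had 1.42, 0.696 and 0.684 CPM in epididymal libraries, below every omentum library (omentum over epididymal 4.60 ± 0.63, adjusted p = 4.73e-06), while the difference of the mesentery from them did not pass (-1.46 ± 0.88, adjusted p = 0.355). Tnfaip2 had 4.07, 3.89 and 4.26 CPM (omentum over epididymal 4.09 ± 0.36, mesentery over epididymal -0.47 ± 0.36) and F3 119, 74.7 and 158 CPM (2.75 ± 0.24 and 0.06 ± 0.23). Fmo2, lower in the omentum, had 599, 669.8 and 596 CPM in the epididymal depot (-5.21 ± 0.33 and 0.43 ± 0.27), and Abcg5 11.8, 20.4 and 20.9 CPM (-5.63 ± 0.49 and -0.05 ± 0.33). For Tnfaip2, F3, Fmo2 and Abcg5 the difference of the omentum was called and that of the mesentery was not (adjusted p from 0.39 to 0.959).

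For another set the mesentery stood apart. Cldn1 had 53.2, 55.0 and 70.6 CPM in epididymal libraries (omentum over epididymal -0.09 ± 0.29, adjusted p = 0.852; mesentery over epididymal 2.50 ± 0.30, adjusted p = 1.17e-06). Krt17 had 0.0285, 0.411 and 0.319 CPM (-0.19 ± 0.92, adjusted p = 0.914, and 5.46 ± 0.57, adjusted p = 3.59e-08), and Lum 22.1, 29.9 and 35.5 CPM (0.07 ± 0.23, adjusted p = 0.871, and 3.05 ± 0.24, adjusted p = 1.95e-10). Mab21l2 had 0.0854, 0 and 0.137 CPM, near the omentum level. All 3 depots differed in Ptges, at 18.3, 10.3 and 10.1 CPM in epididymal libraries (4.84 ± 0.31, adjusted p = 1.19e-12, and 2.22 ± 0.28, adjusted p = 2.52e-06), and in Kng2, at 2.59, 6.52 and 2.58 CPM (-2.61 ± 0.49, adjusted p = 0.000355, and 2.44 ± 0.39, adjusted p = 5.85e-05).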

How the data were processed

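The authors deposited 1 table of raw counts for each library, made per the file headers from uniquely aligned reads. Salmon and GRCm38 are named in the submitters' processing notes, and strand, annotation release and filters are not given in the sources used here. Totals of 30662388 to 41013391 counts per library set the precision, and PCR copies were not marked, so intervals cover counting error only. Libraries of a depot differed by 48.6 to 148 times the counting noise (chi-square per degree of freedom), so none is a copy of another.

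All 34 libraries entered one fit with 12 groups in edgeR 4.0.16 (R 4.3.3). Genes passed filterByExpr at a minimum count of 10, TMM scaled the libraries, and the quasi-likelihood test with robust dispersion and Benjamini-Hochberg adjustment gave the p-values. The fit was tested on simulated data. Contrasts were omentum minus mesentery in mesothelial cells, in fibroblasts, and the difference between these effects. Intervals of count ratios are exact at 95%. Alternatives are normalisation, filter, DESeq2 1.42.0, the samples in the fit, libraries left out, an acinar covariate and a replicate block.

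The members and the 41 gene lists (790 genes, all matched to IDs) were chosen with earlier results of these data known. Named genes are the largest and most abundant differences without overlap at 10 CPM or more, called list members with the smallest adjusted p, the most shared and most different genes between cell types, and a fixed set of markers and chemokines; other members of a list, and genes with a promoter motif, were named after their values were seen. Promoters come from RefSeq. Some genes are not reported here.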

Additional observations from a re-analysis of the deposited data

Results flagged for a closer look

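For 63 genes named above the depot effect differed between the cell types, by the edgeR test of the difference itself (mesothelial effect minus fibroblast effect, log2, 3 libraries in each of 4 groups). Of all genes 5.17% were called in this test, which includes the mesothelial libraries by which many of the named genes were picked.
Among inflammatory, clotting and prostaglandin genes the difference was 4.78 for Tnf, 4.25 for Csf2, 3.97 for F3, 2.17 for Tnfaip2, 1.77 for Ptges, 1.40 for Tfpi2, -1.42 for Pla2g4a, -2.90 for Hpgd, -4.02 for Ptgs2, -6.26 for Cxcl13 and -6.33 for Hdc. Among matrix, hyaluronan and fibroblast genes the difference was 4.17 for Has2, 3.95 for Col15a1, 3.20 for Pi16, 3.16 for Mmp2, 2.57 for Thbs1, 1.72 for Gfpt2, 1.66 for Ly6a, 1.61 for Pdgfra, 1.48 for Fn1, -1.70 for Col14a1, -1.82 for Lum and -2.14 for Adamts15. Among junction, keratin and mesothelial genes the difference was 4.11 for Emp1, -2.24 for Wt1, -2.74 for Cdh3, -2.75 for Cldn1, -2.88 for Dsg2, -3.38 for Upk3b, -4.69 for Ocln, -6.14 for Bnc1, -6.41 for Krt76 and -7.80 for Dsc2. Among cell cycle and cytoskeletal genes the difference was 2.49 for Ccnb1, 2.30 for Top2a, 2.0 for Rrm2, 1.72 for Gsn and 1.5 for Actg1. Among lipid, detoxification and transport genes the difference was 3.63 for Aqp3, 3.59 for Fabp3, 2.20 for Ch25h, -1.89 for Aldh1a2, -2.54 for Fmo1, -3.22 for Gpx3, -4.36 for Fmo2 and -4.53 for Abcg5. Among signalling genes the difference was 4.42 for Lepr, 3.94 for Sfrp4, 2.43 for Adm, 1.77 for Wnt2, -2.29 for Sema3e, -2.34 for Bmp3, -2.55 for Egln3, -2.68 for Fgf1, -3.28 for Rgs4, -4.59 for Gpr85 and -6.72 for Dkk2. Among transcription factors and other products the difference was 2.17 for Prrx1, -3.07 for Itgb8, -3.09 for Twist1, -3.50 for Ppfibp2, -5.15 for Kng2 and -6.85 for Rbm47. A positive value means that the log2 fold change of omentum over mesentery was the higher one in mesothelial cells, and a negative value that it was the lower one there. The causes were not tested.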

How the results depend on the processing

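The 1324 calls in mesothelial cells were 1338 with DESeq2, 1305 with DESeq2 size factors in edgeR, 1862 with no filter on low counts, 1296 at a minimum count of 30, 1109 with the acinar level as covariate, 1025 with only the 6 libraries in the fit and 922 with only the 9 mesothelial libraries. Without the acinar-rich libraries 473 genes were called, 245 higher and 228 lower, and with only the 9 mesothelial libraries in the fit 446 were called lower. Leaving out single libraries gave 845 to 1428 calls in all, 427 to 619 higher and 406 to 809 lower, with 1619 to 1909 calls in fibroblasts and 1021 to 1450 in the difference between cell types. The difference between cell types was called for 1999 genes with no filter on low counts, against 1329 with it. Of the 145 called genes named in the text, 129 stayed called whichever single mesothelial library was left out, 83 stayed called without the acinar-rich libraries and 62 did not. These 62 were Adm, B2m, Bcl3, Bmp3, Bmp6, C1qc, Ccl2, Ccl3, Ccl5, Ccl7, Ccl8, Ccna2, Ccnb1, Ccnd1, Cxcl1, Cxcl13, Cxcl2, Cxcl5, Dsg2, Fabp5, Fgf1, Fosl1, Gsn, Has1, Hdc, Hoxa4, Hoxa5, Hoxa7, Icam1, Id3, Ier5, Igfbp3, Il1b, Il23a, Il25, Isg15, Kif11, Krt23, Lrat, Ly6a, Myc, Myh11, Nfkbia, Nr4a2, Nr4a3, Penk, Pi16, Plaur, Ptger2, Ptgs2, Relb, Rrm2, Sele, Sema3e, Serpinb2, Tbx18, Tfpi2, Thbs1, Tnf, Top2a, Twist1 and Wnt2. None of the named genes reversed under the alternatives run, but these use the same libraries, so kept signs are no separate evidence. Of 82 counts of list members, higher and lower, 36 moved by over 1.5 times without the acinar-rich libraries, 21 with only the 9 mesothelial libraries in the fit, 20 with no filter on low counts, 19 with the acinar level as covariate, 16 with only the 6 libraries and 7 with DESeq2. With only the 9 mesothelial libraries, 2 interferon-stimulated and 3 coagulation genes were called higher, and 3 Wnt, 3 growth factor, 4 neural signalling and 1 glial genes lower. With no filter 14 cell cycle genes and 6 B and plasma cell markers were called higher. No alternative without the acinar-rich libraries could be had for fibroblasts, whose 6 libraries all exceed 1000 acinar CPM. Depth limits genes with few counts, and no more than 3 libraries a depot limit the rest.

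The labels do not say whether the replicate numbers pair the samples, and the correlations given here cannot decide it. Deviations of same-numbered omentum and mesentery libraries correlated with r = -0.03, 0.04 and 0.09 in mesothelial cells and 0.08, 0.37 and 0.10 in fibroblasts. Not every library correlated best with its own number. With the replicate number as a block in the fit of all libraries 1367 genes were called in mesothelial cells, 2060 in fibroblasts and 1374 in the difference, and with only the compared groups 1235, 2428 and 1235. That last fit called 5 leukocyte markers higher.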

Other observations

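A pair of scarce transcripts were found on one side only. Il25, a cytokine known from tuft cells of the gut, had 0.176, 0.551 and 0.369 CPM in omentum libraries and no count in the mesentery libraries or in the epididymal mesothelium. It was called higher in the omentum with 39 counts, and lost its call without mesentery replicate 1 (edgeR adjusted p = 0.0531). Without omentum replicate 2 or omentum replicate 3 it was not among the genes tested. Cyp1a1, the classical target of the aryl hydrocarbon receptor, had no count in the omentum libraries and 0.737, 0.253 and 1.09 CPM in the mesentery libraries, and did not pass the test (edgeR adjusted p = 0.0686), while fibroblasts averaged 0.0416 CPM in the omentum and 1.26 CPM in the mesentery. With DESeq2, with no filter on low counts or without mesentery replicate 2, Cyp1a1 was called lower in omentum mesothelial cells.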
